A study of Drosophila melanogaster with 18 samples.

Results

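The double knockdown of the m6A methyltransferase pair, Ime4 with dMettl14, was compared with its control in Drosophila S2R+ cells. The Ime4_dMettl14 group held 3 libraries and the Ctr group 3, so 6 of the 18 libraries of the series made up the comparison, chosen by their treatment label. Of 17559 gene IDs in the count files, 8146 passed the filter on low counts and all of these were tested. The other 4 groups of 3 libraries, named Fl2d, Vir, Nito and CG7358, are knockdowns of further members of the same complex and serve as a setting for the comparison. S2R+ is a blood-cell-like Drosophila line of embryonic origin that grows attached.

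Ime4_dMettl14 cells received 10 µg of double-stranded RNA against Ime4 and dMettl14, and Ctr cells 10 µg against LacZ, a bacterial gene that fly cells lack. Long double-stranded RNA is taken up by these cells and lowers the matching transcript by RNA interference. All groups shared 3 treatments over 6 days and cells of passages 8 to 10. One cell line was used, and the labels do not say whether replicate libraries stem from separate cultures, so every p-value rests on a spread between libraries that may be technical. Silencing of other transcripts by the same double-stranded RNA cannot be told apart from the loss of the pair. Because both genes were lowered in the same cells, their single effects cannot be told apart either.

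N6-methyladenosine, m6A, is a methyl mark placed on adenosines of messenger RNA while it is being made. Mettl3 (Ime4) carries the catalytic site of the writer and Mettl14 (dMettl14) is its partner, which helps to hold the RNA and stabilises the heterodimer. Fl(2)d, Vir, Nito, Flacc (CG7358) and Hakai form the larger associated complex that brings the pair to its targets. Proteins with a YTH domain read the mark, Ythdc1 in the nucleus and Ythdf in the cytoplasm. In flies the mark is best known for its part in the splicing of Sxl, the switch gene of sex determination, and in the nervous system.

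Library totals were 16043011 to 17858987 counts in the 6 libraries and 15743484 to 18100792 in all 18. Control replicate 1 stood apart from the other libraries of the comparison. Its counts differed from those of the other 2 controls by a chi-square of 12.1 and 15.7 for each degree of freedom, against 2.33 to 4.39 among the 3 Ime4_dMettl14 libraries and 2.35 between the other 2 controls. Its mitochondrial transcripts took 2.23% of counts, against 3.37% to 3.48% in the Ime4_dMettl14 libraries and 3.62% and 3.8% in the other controls. A low share was also seen outside the comparison, at 2.01% in Fl2d replicate 1. Results below are therefore also given without control replicate 1 where that matters. Blood cell markers were present in part. The transcription factor srp was at 226 to 241 CPM (counts scaled to a common library size by the TMM method) in Ime4_dMettl14 and 239.8 to 254 CPM in Ctr, and the peroxidasin gene Pxn at 160.3 to 169.6 CPM in Ime4_dMettl14 and 159 to 173 CPM in Ctr. Another blood cell marker, NimC1, was near 0, at 0.06 to 0.221 CPM in Ime4_dMettl14 and 0.115 to 0.343 CPM in Ctr. Of 8 marker lists, the summed level overlapped between the groups for crystal cells, lamellocytes, muscle, germline, fat body, and glia and epithelium. It did not overlap for plasmatocyte markers (1910 to 1950 CPM in Ime4_dMettl14 and 1840 to 1860 CPM in Ctr) or neuron markers (22.3 to 31.4 CPM in Ime4_dMettl14 and 31.7 to 36.4 CPM in Ctr). Among plasmatocyte markers, drpr was called higher and the receptor gene eater lower (−0.38). The eater call was lost by DESeq2 and without any 1 of 5 libraries, with an adjusted p of 0.214 without control replicate 1. Of 4 neuron markers tested, 0 were called, with 3 values negative and 1 positive. The most abundant, elav, had 17.1, 15 and 21.9 CPM in Ime4_dMettl14 and 24.1, 23.5 and 27.2 CPM in Ctr. Going the other way, brp had 0.812, 0.961 and 0.884 CPM in Ime4_dMettl14 and 0.515, 0.743 and 0.738 CPM in Ctr, without overlap. The groups overlapped for futsch (5.89 to 7.73 CPM in Ime4_dMettl14 and 6.36 to 7.75 CPM in Ctr). The part of these markers in the results was not tested, and fewer cells of a type cannot be told apart from less RNA per cell in bulk libraries. No marker of the 8 lists that was matched to a gene ID was at 0 in all 6 libraries. The listed markers PPO1, VAChT, para, wupA, vas and nos matched no ID and were not examined.

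Both targeted transcripts were far below control in every Ime4_dMettl14 library. Mettl3 (FBgn0039139, 3R, 24032157 to 24034257 of BDGP6) had 3.13, 2.94 and 4.09 CPM in the 3 Ime4_dMettl14 libraries, against 31.7, 32.6 and 32.2 CPM in the 3 Ctr libraries. Mettl14 (FBgn0032016, 2L, 8308427 to 8309961) had 6.5, 7.63 and 7.12 CPM in Ime4_dMettl14, against 50.9, 49.2 and 46.8 CPM in Ctr. Neither pair of groups came near to overlapping. The log2 fold changes were −3.24 ± 0.09 SE (adjusted p = 8.02e-24) for Mettl3 and −2.79 ± 0.07 SE (adjusted p = 1.13e-24) for Mettl14, by edgeR's quasi-likelihood test with Benjamini-Hochberg adjustment across 8146 genes, as for all adjusted p-values here. With any of the 6 libraries left out, the Mettl3 value stayed between −3.39 and −3.15. Per kilobase of exon, the level left was 1.72 CPM for Mettl3 and 5.03 CPM for Mettl14 in Ime4_dMettl14, against 16.3 and 34.8 CPM in Ctr. Cells that escaped the treatment and transcripts that remained in every cell cannot be told apart in bulk RNA.

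Of the 7 writer genes, 1 was called higher and 2 lower, where a call is an adjusted p under 0.05 and calls covered 5.63% of all genes tested. The 2 lower ones were the targets, and the higher one was fl(2)d, whose product is a core subunit of the associated complex. It had 218, 216 and 208 CPM in Ime4_dMettl14, against 177, 179.9 and 171 CPM in Ctr (0.28 ± 0.03 SE, adjusted p = 1.17e-06). All 3 knockdown libraries lay above all 3 controls, and the adjusted p was at most 2.63e-05 with any library left out. The scaffold gene vir had 87.2, 84.5 and 88.3 CPM in Ime4_dMettl14 and 91.3, 88.4 and 89.3 CPM in Ctr, which overlapped in no library and still missed the threshold (adjusted p = 0.553). The RNA-binding subunit gene nito had 174, 182 and 159 CPM in Ime4_dMettl14 and 161, 165 and 167 CPM in Ctr, and Flacc, which links Nito to Fl(2)d, had 41.3, 44.7 and 45.2 CPM in Ime4_dMettl14 and 43.8, 42.3 and 39.4 CPM in Ctr. Hakai, a ubiquitin ligase of the complex, had 14.7, 16.2 and 17.9 CPM in Ime4_dMettl14 and 17.6, 19.6 and 17.7 CPM in Ctr. For these 3 genes the groups overlapped and the log2 fold changes were 0.06, 0.06 and −0.17, with adjusted p between 0.327 and 0.829. The readers Ythdc1 (−0.07) and Ythdf (−0.05) and the RNA-binding protein gene Fmr1 (−0.03) were not called, with adjusted p of 0.476, 0.445 and 0.663.

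**Figure D1:**
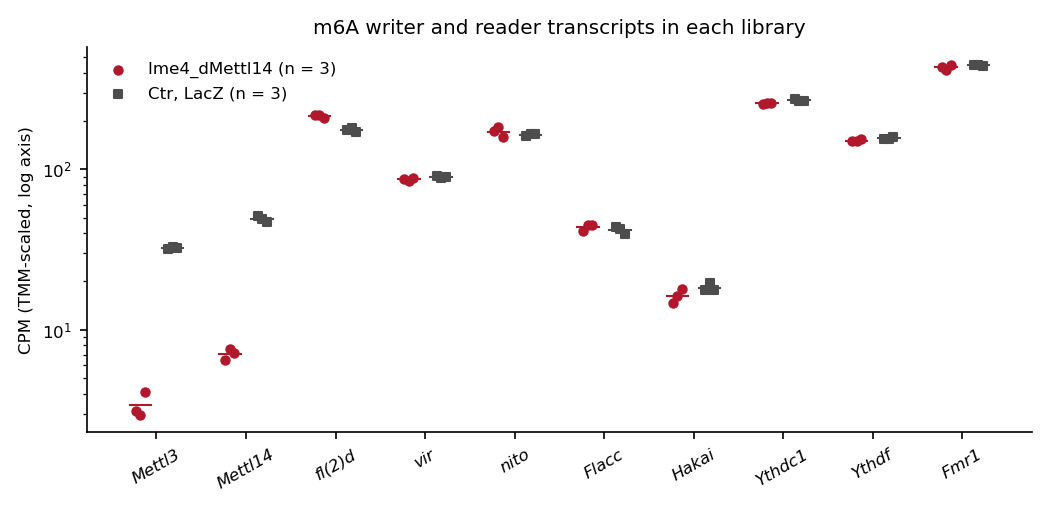
Level of the 10 m6A writer and reader transcripts in CPM (log axis) in each of the 3 Ime4_dMettl14 libraries (red points) and the 3 Ctr libraries (grey squares), with a bar at each group mean. Mettl3 and Mettl14 lie at 2.94 to 7.63 CPM in Ime4_dMettl14 and at 31.7 to 50.9 CPM in Ctr, fl(2)d lies slightly above its controls in every library, and the other 7 genes lie close to theirs.

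Beyond the targets, the double knockdown went with many small differences and few large ones. Of the 8146 genes, 459 were called, 245 higher (3.01%) and 214 lower (2.63%). The median size of a call was 1.12-fold among the higher genes and 1.14-fold among the lower ones. Of the 459, 18 exceeded 1.5-fold (0.221% of genes tested) and 7 exceeded 2-fold. Besides the 2 targets and CG15784, those 7 were the weakly expressed Scgalpha (1.61), wrapper (1.21), apolpp (−1.15) and CG18507 (−1.78). Each of these 4 lost its call without any 1 of 4 to 6 libraries, control replicate 1 among them, and DESeq2 did not call wrapper. Here and below, a signed value after a gene is its log2 fold change, Ime4_dMettl14 over Ctr unless another group is named. The CPM of the 2 groups did not overlap in 456 of the 459, and in 1983 (24.3%) of all genes tested. Without control replicate 1 the count was 267, within the 233 to 364 calls from leaving out any 1 of the 6 libraries. In all, 138 genes (1.69%), 78 higher and 60 lower, were called with all libraries and with each of the 6 libraries left out in turn. An expressed gene was called more often when its level was high: with the genes split into 4 bins of equal size by level, calls covered 1.37% of the lowest bin and 11.1% of the highest.

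**Figure D2:**
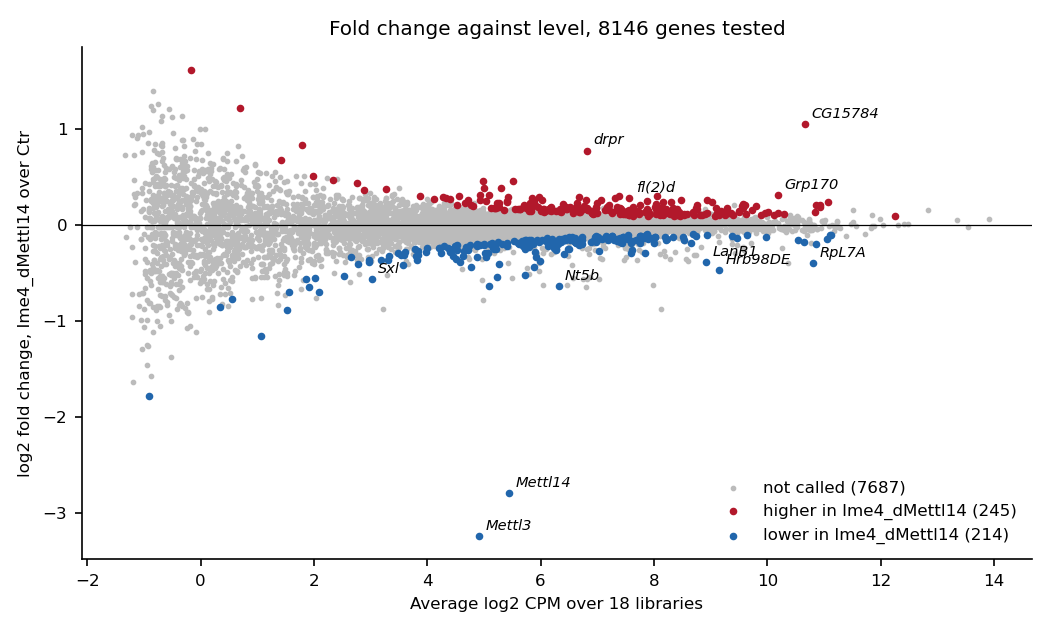
Log2 fold change of Ime4_dMettl14 over Ctr for the 8146 genes tested, against their average log2 CPM over the 18 libraries, with 245 genes called higher in red, 214 called lower in blue and the rest in grey. Mettl3 and Mettl14 stand alone at −3.24 and −2.79, CG15784 and drpr lead the well-expressed genes on the upper side, and most calls lie close to 0.

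Of the calls with an average level of 3 or more in log2 CPM, the largest decreases after the targets were in genes of varied function. Nt5b, which encodes a nucleotidase (FBgn0052549, X, 18390498 to 18410144), had 54.9, 57.2 and 55.2 CPM in Ime4_dMettl14, against 85.0, 82.4 and 93.2 CPM in Ctr (−0.64 ± 0.05 SE, adjusted p = 1.2e-11). The uncharacterised gene CG15211 had 37.5, 38.1 and 41.7 CPM in Ime4_dMettl14, against 58.2, 61.1 and 63.2 CPM in Ctr (−0.64 ± 0.05 SE, adjusted p = 5.67e-10). In both, the highest knockdown library lay well below the lowest control. Plc21C, a phospholipase C, which makes the lipid messenger diacylglycerol, had 41.6, 38.4 and 41.4 CPM in Ime4_dMettl14, against 62.8, 59.8 and 54.0 CPM in Ctr (−0.54 ± 0.06 SE). Dgk, a diacylglycerol kinase, had 12, 12.3 and 13.6 CPM in Ime4_dMettl14, against 16, 16.1 and 16.9 CPM in Ctr (−0.37 ± 0.07 SE, adjusted p = 0.00237). Neither gene's groups overlapped, and both were called with each library left out. Plc21C was the only lower call among 18 phosphoinositide and calcium signalling genes tested (5.56%, against 2.63% of all genes). The 1 higher call (5.56%, against 3.01%) was the calcium pump gene SERCA (0.11), and was lost without any 1 of 4 libraries. Other decreases of this set were in DAAM, a formin that assembles actin (−0.38), Xxylt, a xylosyltransferase (−0.41), TpnC4, a troponin C (−0.39), and the uncharacterised CG6126 (−0.41) and CG7183 (−0.35). The ID FBgn0039632, without a name in the annotation used, fell as well (44.5, 43.1 and 42.9 CPM in Ime4_dMettl14, against 59.4, 55.7 and 61.3 CPM in Ctr, −0.44 ± 0.05 SE, adjusted p = 2.55e-07). The calls of CG15117 (−0.37), nAChRalpha4 (−0.37) and dnc, a cyclic AMP phosphodiesterase (−0.44), each were lost when any 1 of 4 or 5 of the 6 libraries was left out.

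The largest increase at this level was in CG15784, an uncharacterised gene on X (FBgn0029766, X, 5429571 to 5432526). It had 502, 553 and 543 CPM in Ime4_dMettl14, against 271, 255 and 246 CPM in Ctr (1.05 ± 0.09 SE, adjusted p = 8.63e-06). Just upstream on the same strand, the noncoding transcript lncRNA:CR45517 (FBgn0267073, X, 5428483 to 5429256) was lower, at 4.06, 3.12 and 3.15 CPM in Ime4_dMettl14, against 5.78, 5.03 and 5.41 CPM in Ctr (−0.65 ± 0.14 SE, adjusted p = 0.00279). The neighbours thus differed in opposite directions, without overlap of the groups in either. The engulfment receptor gene drpr (FBgn0027594, 3L, 1715595 to 1731107), with which blood cells and glia clear dying cells, had 103, 97.5 and 111 CPM in Ime4_dMettl14, against 63.7, 60.0 and 59.0 CPM in Ctr (0.77 ± 0.05 SE, adjusted p = 6.21e-14). It is also 1 of the 11 plasmatocyte markers whose summed level did not overlap between the groups.

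Further increases of this set were smaller. Ppn, a secreted protein of the basement membrane, had 35.7, 36.7 and 39.5 CPM in Ime4_dMettl14, against 27.8, 27.8 and 26.1 CPM in Ctr (0.46 ± 0.07 SE, adjusted p = 1.91e-05). No library of one group reached into the range of the other. The aldehyde oxidase gene AOX1 (0.29), Arc2, a relative of retrotransposon Gag proteins (0.29), the uncharacterised CG10063 (0.46) and CG12099 (0.30), meigo (0.29) and the G-protein-coupled receptor gene mthl2 (0.29) were all called, also with any library left out. The calls of the sugar transporter gene Tret1-2 (0.31), Cyt-c1L (0.30), CG4793 (0.29), Ugt302C1 (0.31), GstD9 (0.37) and CG7841 (0.30) were each lost on leaving out at least 1 library.

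Genes of the secretory pathway rose in numbers. Of 16 genes of the unfolded protein response and the integrated stress response, 8 rose, 0 fell and 8 were not called (median log2 fold change 0.11), where 3.01% of all genes rose. Of 36 genes of translocation into the endoplasmic reticulum (ER), folding there and glycosylation, 22 rose and 0 fell (median 0.14), and 35 of the 36 values were positive. In the highest of the 4 bins by level, 7.51% of genes rose and 3.58% fell. The first list was chosen with earlier results of these data known and the second after values of these libraries had been seen, so both counts are descriptions. The summed level of the 36 genes was 18792, 18535 and 18896 CPM in Ime4_dMettl14, against 16693, 16665 and 16572 CPM in Ctr, without overlap. Without control replicate 1, 7 of the 16 and 17 of the 36 rose. At an unadjusted p under 0.05, 11 of the 16 were higher and 0 lower, and 30 of the 36 higher and 0 lower, and DESeq2 called 7 and 20 higher and 0 lower.

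Chaperones of the ER lumen were among them. Hsc70-3, the BiP chaperone, had 2322, 2255 and 2342 CPM in Ime4_dMettl14, against 1984, 1959 and 1910.0 CPM in Ctr (0.24 ± 0.03 SE, adjusted p = 4.09e-06). Its nucleotide exchange partner Grp170 had 1321, 1308 and 1337 CPM in Ime4_dMettl14, against 1090.0, 1074 and 1041 CPM in Ctr (0.31 ± 0.03 SE, adjusted p = 4.31e-08). Each knockdown library exceeded each control in both genes. Calr, calreticulin, which holds glycoproteins until they are folded, had 1992, 1989 and 2034 CPM in Ime4_dMettl14, against 1779, 1736 and 1698 CPM in Ctr (0.21 ± 0.03 SE). P58IPK, a co-chaperone of BiP, had 350.2, 339 and 346 CPM in Ime4_dMettl14, against 297, 288 and 293 CPM in Ctr (0.24 ± 0.03 SE). The protein disulphide isomerases ERp60 (0.14) and CaBP1 (0.21), the co-chaperone shv (0.25), the calcium-binding protein gene scf (0.21), GCS2beta, which trims glucose from glycans (0.21), and Stt3B of the oligosaccharyltransferase (0.17) rose with them. All 10 genes named here were called with any library left out.

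Some sensors and effectors of the stress response were called and others were not. Ire1, the sensor kinase and nuclease, rose (0.18 ± 0.04 SE, adjusted p = 0.00344), as did Manf (0.18), a secreted ER stress protein, and Hrd3 (0.19) of ER-associated degradation. The transcription factor gene crc (ATF4) had 779, 817 and 779 CPM in Ime4_dMettl14, against 712, 684 and 703 CPM in Ctr (0.18 ± 0.03 SE, adjusted p = 0.000497), and Xrp1, another stress transcription factor, rose by a log2 value of 0.13. The groups did not overlap for crc. Xbp1, the transcript that Ire1 splices, had 722, 723 and 739 CPM in Ime4_dMettl14 and 762, 758 and 728 CPM in Ctr, with overlap (adjusted p = 0.49), and gene counts do not show its splicing. The sensor genes PEK (0.05) and Atf6 (−0.07) and Thor (−0.13), the 4E-BP target of crc, were not called either. PPP1R15 (0.13) and Irbp18 (0.17) rose, and lost their calls on leaving out any 1 of 3 and of 5 libraries. Of 22 genes of vesicle transport between ER and Golgi, also listed after values were seen, 6 rose (27.3%, against 3.01% of all genes) and 0 fell. Among the 6 were the cargo receptor gene ergic53 (0.16) and the coat GTPase gene Sar1 (0.12). At an unadjusted p under 0.05, 9 of the 22 were higher and 0 lower.

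**Figure D3:**
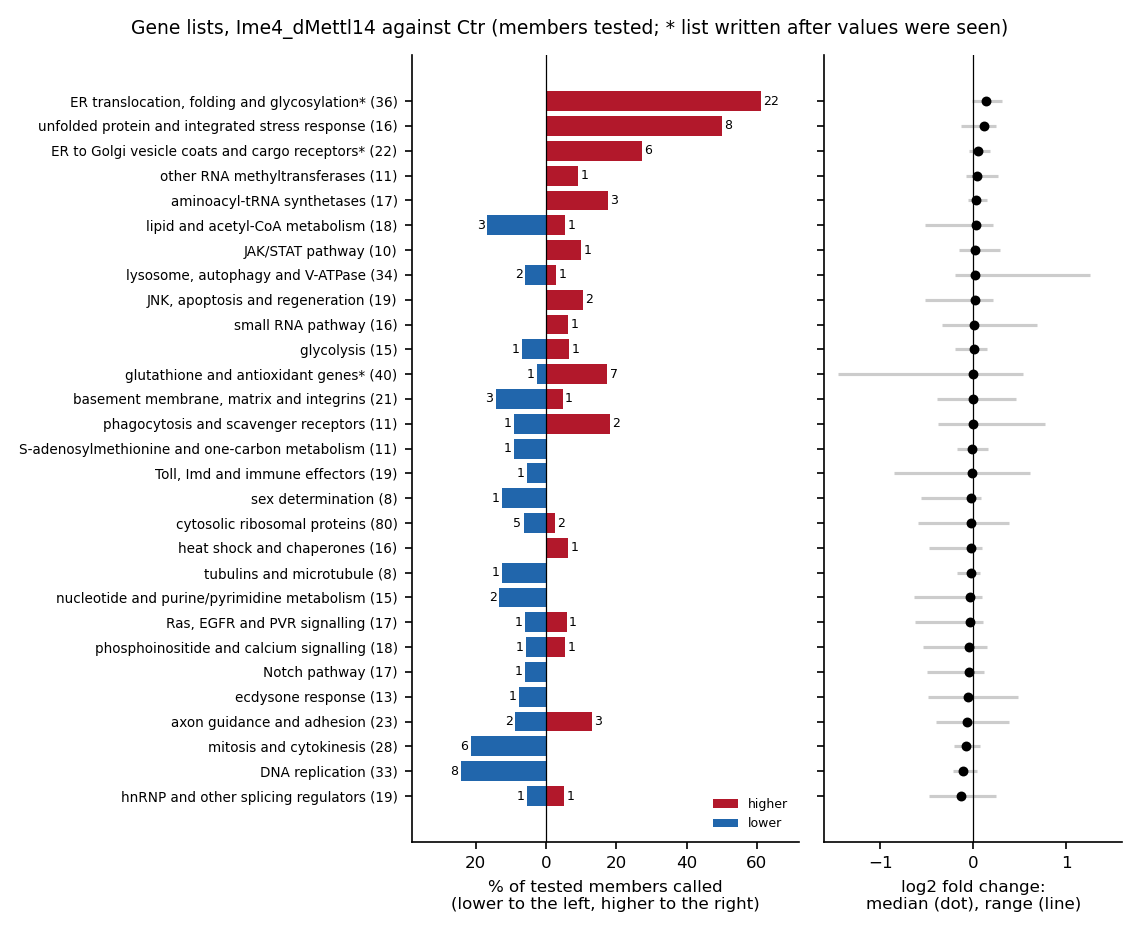
Gene lists with a call and at least 8 members tested are drawn, cell type marker lists aside. Red bars to the right give the percentage of tested members called higher in Ime4_dMettl14 than in Ctr, and blue bars to the left lower. Their counts are printed beside the bars. The right panel gives the median (dot) and range (line) of the members' log2 fold changes. The m6A writer list, with 7 members tested, is not drawn. Among the lists drawn, the ER list (61.1% higher) and the stress response list (8 of 16 higher) extend farthest to the right, and DNA replication (24.2% lower) and mitosis (21.4% lower) to the left.

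**Figure D4:**
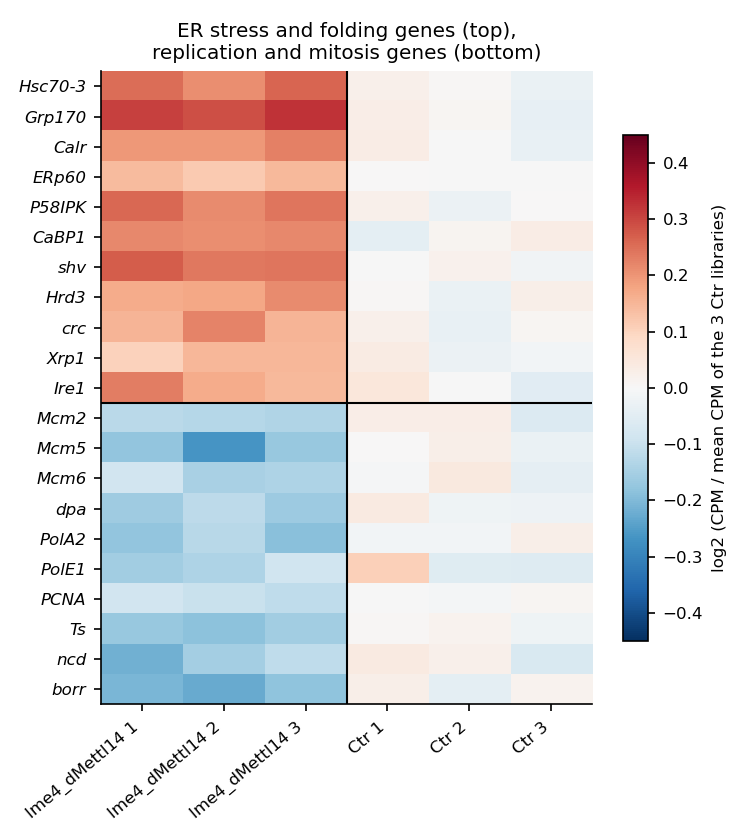
Each cell gives the CPM of a gene in 1 library over the mean of the 3 Ctr libraries, on a log2 colour scale (red above, blue below), for 11 ER and stress genes above the line and 10 replication and mitosis genes below it, with the 3 Ime4_dMettl14 libraries on the left and the 3 Ctr libraries on the right. The genes above the line are red in every Ime4_dMettl14 library and those below it blue, while control replicate 1 stands out for PolE1. All genes drawn were picked from the calls in these same libraries, so their colours follow from that choice. Members not called, such as Xbp1, PEK, Atf6 and Thor, are not drawn.

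Calls among genes of DNA replication were all in the lower direction and small. Of 33 tested, 8 fell and 0 rose (median log2 fold change −0.11, 31 of 33 values negative), where 2.63% of all genes fell. Their summed level was 4118, 4158 and 4095 CPM in Ime4_dMettl14, against 4412, 4336 and 4304 CPM in Ctr. Mcm5, a subunit of the replicative helicase, had 97.4, 91.8 and 98.0 CPM in Ime4_dMettl14, against 110.4, 112 and 108 CPM in Ctr (−0.20 ± 0.04 SE, adjusted p = 0.00163). The helicase subunit gene dpa (Mcm4) had 218, 224 and 217 CPM in Ime4_dMettl14, against 250.0, 239.8 and 239 CPM in Ctr (−0.15 ± 0.03 SE, adjusted p = 0.00323). Both were without overlap and were called with any library left out. The sliding clamp gene PCNA had 380.5, 377 and 373 CPM in Ime4_dMettl14, against 403, 401 and 406 CPM in Ctr (−0.10 ± 0.03 SE, adjusted p = 0.0345), and lost its call on leaving out any library. PolA2 (−0.16), Mcm2 (−0.13), Mcm6 (−0.12) and PolE1 (−0.13) fell, and each lost its call without any 1 of 3 to 5 libraries. Without control replicate 1, 4 of the 33 fell. At an unadjusted p under 0.05, 18 were lower and 0 higher, and DESeq2 called 7 lower and 0 higher. Ts, thymidylate synthase, which makes the thymidine nucleotide for new DNA, was the eighth called (−0.17 ± 0.04 SE, adjusted p = 0.00889).

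Of 28 genes of mitosis and cytokinesis, 6 fell (21.4%, against 2.63% of all genes) and 0 rose (median −0.08). Their summed level was 4975, 4988 and 5108 CPM in Ime4_dMettl14, against 5415, 5306 and 5146 CPM in Ctr. The kinesin gene ncd had 293, 306 and 314 CPM in Ime4_dMettl14, against 349.9, 346 and 324 CPM in Ctr (−0.16 ± 0.03 SE, adjusted p = 0.00163). The chromosomal passenger gene borr had 52, 51.2 and 52.9 CPM in Ime4_dMettl14, against 61.0, 58.2 and 60.6 CPM in Ctr (−0.20 ± 0.05 SE, adjusted p = 0.0104). The spindle genes asp (−0.15) and Klp61F (−0.13), tum (−0.11) and the passenger gene Incenp (−0.13) made up the rest of the calls, and these 4 and borr each lost their call without control replicate 1. That library was not the only one such calls hung on. The calls of asp and Klp61F were also lost without Ime4_dMettl14 replicate 1 (adjusted p of 0.114 and 0.0747) or replicate 2 (0.0729 and 0.0551). Control replicate 1 had the highest sum of the list, and without it 1 of the 28 fell. At an unadjusted p under 0.05, 14 were lower and 1 higher, and DESeq2 called 5 lower and 0 higher.

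Cytosolic ribosomal protein genes were called in both directions. Of 80 tested, 2 rose (2.5%, against 3.01% of all genes) and 5 fell (6.25%, against 2.63% of all genes), with a median of −0.02. The summed levels overlapped, at 102086 to 105500 CPM in Ime4_dMettl14 and 103332 to 107983 CPM in Ctr. RpL7A fell, with 1287, 1319.6 and 1300.0 CPM in Ime4_dMettl14, against 1689.7, 1676 and 1772 CPM in Ctr (−0.40 ± 0.03 SE, adjusted p = 3.83e-10). RpL15 rose, with 2034, 2081 and 2082 CPM in Ime4_dMettl14, against 1833, 1754 and 1781 CPM in Ctr (0.21 ± 0.03 SE, adjusted p = 5.22e-05). These large-subunit genes thus differed in opposite directions, each without overlap. RpS19b, a close copy of RpS19a, so that their reads may be shared, also rose (47.4, 50.8 and 51.5 CPM in Ime4_dMettl14, against 36.9, 39.8 and 38.2 CPM in Ctr, 0.38 ± 0.05 SE). RpL27 (−0.17), RpLP0 (−0.16), RpL11 (−0.14) and RpL3 (−0.10) fell, and the RpL3 call was lost without any 1 of 4 libraries. By edgeR and by DESeq2, 0 of 70 mitochondrial ribosomal protein genes and 0 of 33 proteasome genes were called. At an unadjusted p under 0.05, 0 of the 70 were higher and 4 lower, and 2 of the 33 higher and 3 lower.

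Calls among regulators of splicing were few. Hrb98DE, an hnRNP A relative that binds pre-mRNA, had 413, 405 and 423 CPM in Ime4_dMettl14, against 570.2, 562 and 591 CPM in Ctr (−0.47 ± 0.03 SE, adjusted p = 1.66e-13). Its relative Hrb87F had 619, 601 and 595 CPM in Ime4_dMettl14, against 522, 516 and 498 CPM in Ctr (0.24 ± 0.06 SE, adjusted p = 0.0357). The pair differed in opposite directions without overlap, and the Hrb87F call was lost on leaving out any library. They were the only calls among 19 hnRNP and other splicing regulators (5.26% higher, against 3.01% of all genes, and 5.26% lower, against 2.63%). The median of the 19 was −0.13, with 13 values negative and 6 positive. At an unadjusted p under 0.05, 1 of the 19 was higher and 3 lower. By edgeR or DESeq2, 0 of 16 SR protein and U2AF genes were called (2 higher and 0 lower at an unadjusted p under 0.05). The same held for 0 of 13 exon junction and export genes (1 higher and 2 lower) and 0 of 21 RNA decay genes (0 higher and 1 lower). Sxl, the target of the mark named above, had 6.26, 5.29 and 6.96 CPM in Ime4_dMettl14, against 8.65, 8.40 and 10.5 CPM in Ctr (−0.57 ± 0.16 SE, adjusted p = 0.0334). Its groups did not overlap, but the adjusted p reached 0.153 with a library left out, and the call held only without Ime4_dMettl14 replicate 3. Sxl, like Mettl14, drpr, Hrb98DE, scramb2 and Akap200, overlaps a gene on the opposite strand, as do 3815 of the 8146 genes tested in all. Whether the counting used the strand is not given in the sources used here, so these counts are uncertain. Gene counts do not separate the splice forms of Sxl. Sxl was the only call among 8 sex determination genes (12.5% lower, against 2.63% of all genes), with tra at 0.07 and tra2 at 0.02. Of 8 dosage compensation genes, 0 were called by edgeR or DESeq2 (1 lower at an unadjusted p under 0.05).

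Matrix and adhesion genes were called in both directions. LanB1, a laminin chain of the basement membrane, had 446, 423 and 439 CPM in Ime4_dMettl14, against 594, 581 and 539 CPM in Ctr (−0.39 ± 0.04 SE, adjusted p = 1.59e-08). Of the 21 genes of basement membrane, matrix and integrins, 3 fell (14.3%, against 2.63% of all genes), LanB1, the integrin ligand gene Tig (−0.19) and the integrin alpha chain gene if (−0.24), and 1 rose, Ppn (4.76%, against 3.01%). The call of if was lost by DESeq2 and without any 1 of 4 libraries. Of 23 axon guidance and adhesion genes, 3 rose (13%, against 3.01% of all genes) and 2 fell (8.7%, against 2.63%), with the repellent ligand gene sli (0.26), the Abl kinase gene (0.20) and Kal1 (0.38) higher and the receptor genes robo2 (−0.19) and unc-5 (−0.21) lower. The robo2 call was lost without any 1 of 2 libraries. In lipid metabolism, AcCoAS, which makes acetyl-CoA from acetate, had 68.4, 69.0 and 65.0 CPM in Ime4_dMettl14, against 83.4, 85.1 and 86.4 CPM in Ctr (−0.33 ± 0.04 SE, adjusted p = 1.93e-06). The acyl-CoA synthetase gene pdgy (−0.52) and mdy (−0.26), which completes triglyceride synthesis, fell too, while SCAP (0.12), the escort of the SREBP factor, rose. These were the calls among 18 genes of lipid and acetyl-CoA metabolism, 3 lower (16.7%, against 2.63% of all genes) and 1 higher (5.56%, against 3.01%). The calls of mdy (adjusted p = 0.142 without control replicate 1) and SCAP were lost without any 1 of 3 and of 4 libraries. Socs36E, a feedback inhibitor of JAK/STAT signalling, rose (0.26), as did the TNF ligand gene egr (0.13) and its receptor gene wgn (0.22), the egr call being lost without Ime4_dMettl14 replicate 1.

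The Ime4_dMettl14 libraries were also set directly against each other knockdown. Calls numbered 2111 (25.9%) against Fl2d, 2196 (27.0%) against Vir, 5084 (62.4%) against Nito and 2594 (31.8%) against CG7358. The values of each knockdown over Ctr given below share the same 3 control libraries, and calls over Ctr covered 32.0% of genes in Fl2d, 34.0% in Vir, 60.7% in Nito and 37.6% in CG7358. CG15784 had values over Ctr of 1.05 in Ime4_dMettl14 and 2.68, 2.62, 4.09 and 2.35 in Fl2d, Vir, Nito and CG7358, and drpr had 0.77 in Ime4_dMettl14 and 1.66, 1.15, −0.20 and 1.13 in the same order. Set directly against Fl2d, CG15784 differed in Ime4_dMettl14 by −1.63 ± 0.09 SE (adjusted p = 1.78e-08), and against Nito drpr differed by 0.97 ± 0.05 SE (adjusted p = 4.27e-18). Higher in Ime4_dMettl14 than in Ctr and in all 4 other knockdowns were 15 genes (0.184%), and lower in the same sense 30 (0.368%).

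Hrb98DE belonged to the 30 lower genes, with a level of 579 to 609 CPM in Fl2d, 648 to 661 in Vir, 589.8 to 596 in Nito and 565 to 588 in CG7358. The direct differences of Ime4_dMettl14 were −0.53 ± 0.03 SE from Fl2d, −0.66 ± 0.03 SE from Vir, −0.52 ± 0.03 SE from Nito and −0.47 ± 0.03 SE from CG7358, on the log2 scale. Nt5b differed from each by a log2 value of −0.46, −0.63, −0.69 and −0.57, in that order. RpL7A differed by −0.63, −0.65, −0.49 and −0.53. The phospholipid scramblase gene scramb2 (−0.29 over Ctr) and the co-chaperone gene Tpr2 (−0.26) were in the same set. Among the 15 higher genes, the membrane-curving protein gene Cip4 was at 0.28 over Ctr in Ime4_dMettl14 and at −0.02, 0.00, −1.44 and 0.11 in the other knockdowns. Tango5 (0.18) and the glutathione transferase genes GstE9 (0.25) and GstE2 (0.19) belonged to them too, and reads of the GstE genes may be shared between near-identical copies.

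Some called genes had a call over Ctr in the opposite direction in at least 3 of the other 4 knockdowns. Akap200, a kinase anchor protein gene, had 1584, 1542 and 1591 CPM in Ime4_dMettl14, against 1763, 1825 and 1834 CPM in Ctr (−0.20 ± 0.03 SE, adjusted p = 1.2e-05), and its values over Ctr were 0.08, 0.07, 0.11 and 0.16 in Fl2d, Vir, Nito and CG7358. RpL7A, at −0.40 in Ime4_dMettl14, was at 0.24, 0.25, 0.09 and 0.13 in the same order. Ugt317A1, a UDP-glycosyltransferase gene, was at 0.18 in Ime4_dMettl14 and at −0.60, −0.64, −1.08 and −0.63 in the others. The kek1 gene, which encodes an EGFR inhibitor, was at −0.18 in Ime4_dMettl14 and at 0.53, 0.41, 0.69 and 0.49. The calls of Ugt317A1 and kek1 over Ctr were lost without any 1 of 4 and of 3 libraries.

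Members of several lists also differed directly between Ime4_dMettl14 and the other knockdowns. Of 80 cytosolic ribosomal protein genes, 70 were lower in Ime4_dMettl14 than in Fl2d, 67 than in Vir, 41 than in Nito and 57 than in CG7358, where 13.5%, 13.4%, 31.3% and 16.1% of all genes were lower. Their medians over Ctr were −0.02 in Ime4_dMettl14 and 0.17, 0.18, 0.07 and 0.11 in Fl2d, Vir, Nito and CG7358. Of the 36 ER genes, 30 were higher in Ime4_dMettl14 than in Nito and 0 lower, where 31.1% of all genes were higher. Against CG7358 the counts ran the other way, with 1 higher and 14 lower, where 15.8% of all genes were higher and 16.1% lower. Against Fl2d 7 were higher and 9 lower, and against Vir 10 higher and 6 lower. The medians of these ER genes over Ctr were 0.14 in Ime4_dMettl14 and 0.18, 0.15, −0.27 and 0.21 in Fl2d, Vir, Nito and CG7358. Of the 33 replication genes, 22 were lower than in Nito and 2 higher, and against Vir 8 were lower and 2 higher. Against Fl2d 3 were lower and 2 higher, and against CG7358 3 were lower and 8 higher. The medians of the replication genes over Ctr were −0.11 in Ime4_dMettl14 and −0.11, −0.05, 0.16 and −0.14 in Fl2d, Vir, Nito and CG7358. Of 18 lipid metabolism genes, 11, 12, 14 and 10 were higher in Ime4_dMettl14 than in Fl2d, Vir, Nito and CG7358, where 12.4%, 13.5%, 31.1% and 15.8% of all genes were higher. In the same order, 1, 1, 2 and 1 were lower. The medians of the lipid genes over Ctr were 0.03 in Ime4_dMettl14 and −0.10, −0.19, −0.29 and −0.13 in Fl2d, Vir, Nito and CG7358. Scaling by DESeq2 size factors moved these counts by at most 1 gene per list and direction.

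**Figure D5:**
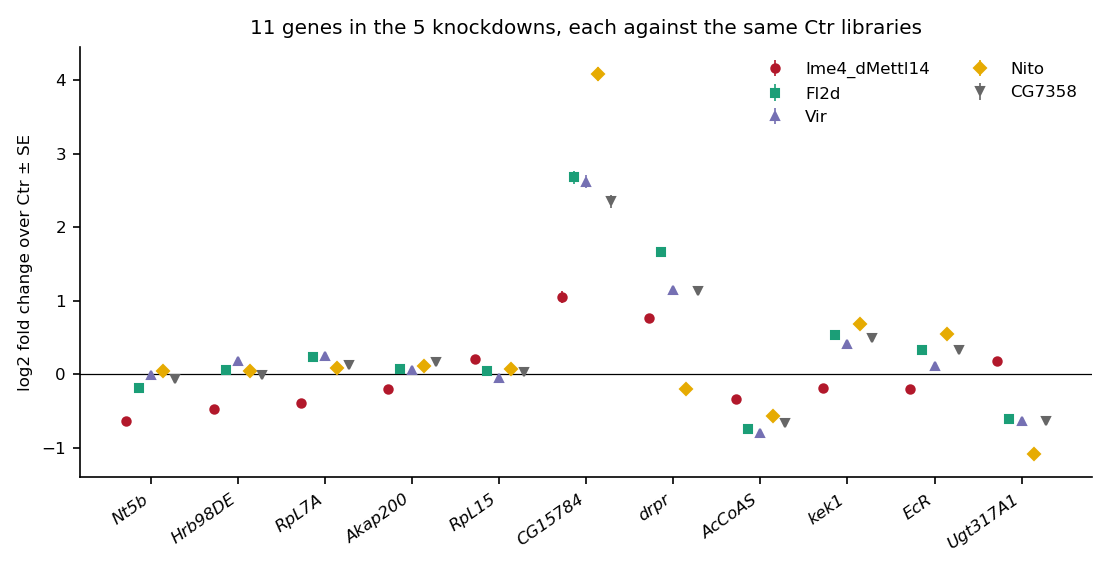
Log2 fold change over Ctr with its standard error for 11 genes in Ime4_dMettl14 (red circles), Fl2d, Vir, Nito and CG7358, all against the same 3 Ctr libraries. Ime4_dMettl14 is lowest of the 5 for Nt5b, Hrb98DE, RpL7A and Akap200, and its CG15784 value of 1.05 is the lowest of 5 positive ones.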

How the data were processed

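Per the labels, poly(A) messenger RNA of S2R+ cells was sequenced after double-stranded RNA treatment. The deposited values are whole-number counts of reads per gene, 1 file a library. STAR 2.5.1b, featureCounts 1.5.1 and the BDGP6 build are named in the submitters' processing notes. Strand setting and annotation release: not given in the sources used here. Totals were 15743484 to 18100792 counts a library. Symbols and coordinates were taken from Ensembl's BDGP6 annotation, in which 17253 of 17559 IDs were found; the 306 others held 4.83% of counts and keep their IDs.

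Counts of all 18 libraries were fitted in edgeR 4.0.16 (R 4.3.3) with TMM scaling, filterByExpr's default filter, 1 coefficient a group and robust quasi-likelihood tests, which pool the spread over 12 residual degrees of freedom. P-values were adjusted over the 8146 genes, and an adjusted p under 0.05 is a call. DESeq2 1.42.0 was an alternative, with other filters, scalings, fits and each library left out. The procedure was run on simulated data whose planted changes were larger than most calls here, so recovery of changes as small as most calls was not tested. The members, 34 pathway lists and 8 marker lists were chosen with earlier results of these data known, and 3 further lists after values were seen. Of the names written on the lists, 52 matched no gene ID and are left out of all list counts and sums. Among these were Mcm3, Orc1 and RPA2 (replication), Pdi, Der-1 and Derl-2 (stress response) and Sec62 and TER94 (ER). Genes named are m6A genes, the 20 called genes per direction with the largest fold change (groups without overlap, average log2 CPM 3 or more), up to 4 called members a list by p, up to 8 per direction that differ from all other groups or oppose at least 3 other knockdowns, and the 10 most abundant calls. Other genes were named after their values were seen. One gene that the rule names is not reported here.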

Additional observations from a re-analysis of the deposited data

How the results depend on the processing

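Of 459 genes called against Ctr, DESeq2 size factors gave 462, DESeq2's own test 357, no low-count filter 529, a CPM above 5 in 3 libraries 483, a fit of only the groups compared 493, and a fit without Nito 414. Leaving out 1 library gave 233 to 364 calls, 119 to 194 higher and 99 to 170 lower. A test against a 1.5-fold change gave 4 calls against Ctr (2 higher, 2 lower). The 2 lower ones were the targets Mettl3 and Mettl14. The same test gave 44 calls against Fl2d (26 and 18), 32 against Vir (23 and 9), 566 against Nito (278 and 288) and 53 against CG7358 (35 and 18). Replicate numbers did not pair the libraries (correlations of same-numbered deviations −0.07, 0.01 and −0.04). With the replicate number as a block, 458 genes were called. With that block and only the groups compared, an alternative chosen after seeing the data, 341 were called, 160 of them higher. Of 104 named genes called, leaving out 1 library cost 22 to 31 their call and DESeq2's test 10, none changed direction under any alternative run, and 59 were called with each library left out. The cause of these changes was not tested. Of 4 bins by level, genes in the lowest were called least (1.37%); the part of depth in this was not tested.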

Other observations

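Of 40 glutathione and antioxidant genes, a list written after values were seen, 7 were higher (17.5%, against 3.01% of all genes) and 1 lower (2.5%, against 2.63%) in Ime4_dMettl14 (median log2 fold change −0.003), and 4 were higher without control replicate 1. Gclc, the catalytic subunit of the rate-limiting enzyme of glutathione synthesis, had 131, 128 and 131 CPM in Ime4_dMettl14, against 111, 114 and 108 CPM in Ctr (0.23 ± 0.03 SE, adjusted p = 2.55e-05). On chromosome 4, 1 of 83 genes tested was called (1.20%), against 5.14% to 6.2% on the X and the large autosome arms, and its median log2 fold change was −0.07. Near Mettl14 on 2L, the weakly expressed sarcoglycan gene Scgalpha (FBgn0032013, 2L, 8303429 to 8305376) had 0.696, 0.360 and 1.10 CPM in Ime4_dMettl14, against 0.229, 0.286 and 0.184 CPM in Ctr (adjusted p = 0.041), and its call was lost without any 1 of 5 libraries. The noncoding transcript lncRNA:CR44920 had 1.80, 1.80 and 1.77 CPM in Ime4_dMettl14, against 3.44, 3.54 and 2.95 CPM in Ctr (−0.89 ± 0.19 SE, adjusted p = 0.0035).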
